A study of Mus musculus with 18 samples.

Results

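The Krüppel-like factor (KLF) genes measured here were 10 members of the family, chosen by symbol and matched to the count table by Ensembl gene ID: Klf2, Klf3, Klf4, Klf5, Klf6, Klf7, Klf9, Klf10, Klf13 and Klf16. These members and the gene lists used below were chosen with earlier results of these data known. Their counts and medians beside those of all genes are therefore descriptions. The members were 10 of the 53801 genes in the table and 10 of the 18469 genes with enough counts to be tested. RNA of mouse embryonic stem cells (ESCs) was sequenced in 18 libraries, 3 in each of 6 groups. WT cells were the E14TG2a line, and iEZR_CA cells were E14 cells carrying a PiggyBac transgene that expresses, when doxycycline is given, a phosphomimetic and constitutively active form of ezrin together with mCherry. Ezrin ties the plasma membrane to the actin cortex. Both lines were sampled as naive ESCs in N2B27 medium with the MEK inhibitor PD0325901, the GSK3 inhibitor CHIR and leukemia inhibitory factor (LIF), and after 24 h (T24) or 48 h (T48) in N2B27 alone on gelatin, which starts the exit from naive pluripotency. Doxycycline was added about 16 h before exit in iEZR_CA cells and none is listed for WT cells, so the drug, the transgene and the line itself cannot be told apart. Whether the iEZR_CA line is a single clone is not given in the sources used here.

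KLF proteins bind GC-rich and CACCC-containing DNA through zinc fingers at their C terminus and differ in the N-terminal part that recruits partners. Klf2, Klf4 and Klf5 are activators that sustain naive pluripotency, partly redundantly with each other. Klf4 is induced by LIF through STAT3, and Klf2 protein is destabilized by ERK signalling, which PD0325901 blocks upstream. Klf6 and Klf7 belong to the same activator branch. Klf3 is a repressor that recruits the CtBP corepressors, and Klf9, Klf10, Klf13 and Klf16 form the branch that recruits the SIN3 corepressor complex.

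The libraries held between 10940752 and 33276622 counts on genes, with a median of 23096248. Ezr, the gene whose product the transgene encodes, was higher in every iEZR_CA library than in every WT library of the same stage, with means of 24819 against 11763 normalized counts in ESCs, 20793 against 7711 at T24 and 16215 against 10096 at T48. The ESC markers Pou5f1, Sox2, Sall4, Zfp42 and Esrrb were above the limit of 3 counts in all groups and summed to between 75715 and 77224 normalized counts in WT and between 64789 and 66273 in iEZR_CA ESCs, and to 23268 to 23880 and 28422 to 29570 at T48. Under the test described below, 0 of these 5 were higher and 4 lower in iEZR_CA ESCs, beside 26.4% and 28.1% of all genes tested. At T48, 3 were higher and 2 lower, beside 31.0% and 30.1%. Zfp42 was among the higher there, at means of 820 in WT and 5046 in iEZR_CA cells, and Pou5f1 among the lower, at 13126 and 10869. Over 8 primitive endoderm markers the sum ran from 1993 to 2038 in WT ESCs and from 4257 to 4565 in iEZR_CA ESCs, with Lama1 the most abundant in both and Sox7 at or under 3 counts in iEZR_CA ESCs. By the test described below, 3 of these 8 were higher and 2 lower in iEZR_CA ESCs, beside 26.4% and 28.1% of all genes tested. Gata4 was among the lower, at means of 97.5 in WT and 17.4 in iEZR_CA ESCs. Over 6 trophoblast markers the sum ran from 3004 to 3098 in WT ESCs and from 1980 to 2082 in iEZR_CA ESCs, with Tfap2c the most abundant in both and Hand1 at or under 3 counts in both. Of the 5 trophoblast markers tested, 2 were higher and 2 lower in iEZR_CA ESCs. Gata3 was among the higher, at means of 28.1 in WT and 138 in iEZR_CA ESCs. The primitive endoderm sum was 273 to 328 in WT and 766 to 846 in iEZR_CA cells at T24, and 692 to 759 and 382 to 436 at T48. Of these 8 markers, 2 were higher and 6 not called in iEZR_CA cells at T24, beside 30.8% of all genes higher. The 2 were Lama1 and Dab2, at means of 150 and 33.5 in WT and 397 and 303 in iEZR_CA cells. At T48, 1 of the 8 was higher and 5 lower, beside 31.0% and 30.1%. The trophoblast sum was 211 to 259 in WT and 479 to 529 in iEZR_CA cells at T24, and 255 to 292 and 606 to 680 at T48, with Elf5 at or under 3 counts in both lines at T48. Of the 5 trophoblast markers tested, 2 were higher and 3 not called at T24, and 3 were higher and 1 lower at T48. The sum of 4 fibroblast markers was 34.1 to 72.5 over the WT libraries and 39.9 to 57.7 over the iEZR_CA libraries before T48. It ran at T48 from 570 to 637 in WT and from 348 to 429 in iEZR_CA cells. Of the 4 fibroblast markers, 3 were lower and 1 higher in iEZR_CA cells at T48, beside 30.1% and 31.0% of all genes tested. The higher one was Dcn, the most abundant, at means of 227 in WT and 331 in iEZR_CA cells. Over 5 markers of 2-cell-like cells the sums lay between 19.2 and 111 in all groups. The part of these marker differences in the KLF values was not tested. In bulk RNA, fewer cells that express a gene and less of its RNA per cell cannot be told apart.

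Levels below are normalized counts, the counts of a library divided by its median-of-ratios size factor, and differences are log2 fold changes with their standard error (SE) from edgeR's quasi-likelihood test on the counts. The 3 values of a group are given in the order of its libraries, numbered 1 to 3. Spike-in scaling is an alternative that sets each library to the counts of the synthetic ERCC RNAs added to it, and calls that it changed are named beside the gene. A gene was called when its p-value, adjusted by the Benjamini-Hochberg method over all 18469 genes, was under 0.05. The study describes the 3 libraries of a group as biological replicates. The p-values set a difference against the spread between libraries within groups, estimated over all 6 groups. With a single WT and a single iEZR_CA line, they do not cover variation between lines or clones. The spread within groups was small, with a common biological coefficient of variation of 2.98%. Between 38.3% and 74.5% of all genes were called, depending on the comparison.

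Compared per kilobase of exon (RPKM, counts scaled by exon length and library total), the KLF genes were at their highest summed level in naive ESCs. The sum over the 10 genes was 518 ± 31.2 RPKM (SD, n = 3) in WT ESCs, 214 ± 13.1 at T24 and 125 ± 3.89 at T48. In iEZR_CA cells it was 455 ± 18, 237 ± 11.3 and 159 ± 3.96. The iEZR_CA libraries lay below the WT libraries in ESCs, at 439, 453 and 474 against 488, 515 and 550, and above them at T48, at 155, 161 and 162 against 120, 126 and 128. At T24 the ranges overlapped, 224 to 245 against 201 to 227. Klf2, Klf4 and Klf5 together made up 75.6% ± 0.442 of the sum in WT ESCs, 34.8% ± 1.79 at T24 and 19.9% ± 1.78 at T48. The share in iEZR_CA cells was 72.9% ± 0.793, 48.3% ± 1.28 and 28.7% ± 0.767.

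**Figure D1:**
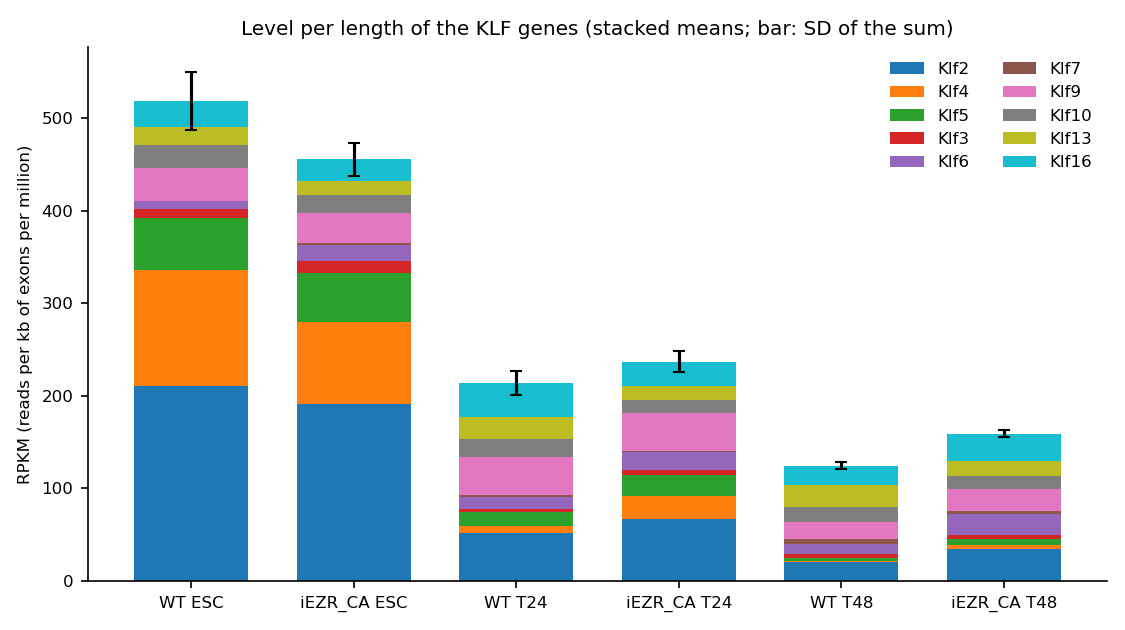
Stacked bars give the mean RPKM of each KLF gene in the 6 groups, with WT and iEZR_CA side by side at each stage and the SD of the sum over 3 libraries as a black bar. The total falls from 518 to 125 in WT and from 455 to 159 in iEZR_CA cells, and most of the fall is in Klf2, Klf4 and Klf5.

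The order of the members changed during exit. In WT ESCs it ran from Klf2 (211 ± 20.5 RPKM) over Klf4 (125 ± 5.02), Klf5 (55.7 ± 1.16), Klf9 (35.1 ± 1.19), Klf16 (28.2 ± 2.47), Klf10 (24.9 ± 0.999), Klf13 (19.1 ± 0.88), Klf3 (10.1 ± 0.402) and Klf6 (8.46 ± 0.0883) to Klf7 (0.572 ± 0.0627), and no neighbours in this order overlapped. At T48 in WT cells Klf13 came first (23.8 ± 1.57), Klf16 (21.3 ± 0.669) overlapped with Klf2 (20.5 ± 2.78), and Klf2 overlapped with Klf9 (18.1 ± 0.451). Klf4, in place 2 of the order in WT ESCs, came last at T48, at 0.812 ± 0.0667 RPKM. In iEZR_CA cells Klf2 stayed first at all 3 stages, with 191 ± 13.8, 67.2 ± 6.69 and 34.4 ± 2.16 RPKM, and Klf7 came last at each stage, at 3.01 ± 0.1 RPKM at T48. These orders depend on the length used. By the length of the longest transcript, Klf16 and Klf10 change places in WT ESCs, and at T48 in WT Klf10 moves from place 5 to 2 ahead of Klf16, Klf2 and Klf9. Klf3, whose exons span 11243 bases in all and whose longest transcript spans 5221, moves from place 9 to 5 in iEZR_CA ESCs.

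In WT cells the members changed within the first 24 h. Of the 10 members, 5 were called higher and 5 lower at T24 than in ESCs, against 31.8% and 33.6% of all genes tested, and 9 of the 10 were called with spike-in scaling, which did not keep Klf10 (-0.21, adjusted p = 0.18 by edgeR). Between T24 and T48, 2 were called higher and 7 lower, against 32.8% and 32.9%. Over the whole 48 h, 3 were called higher and 7 lower, against 37.1% and 37.4%, and spike-in scaling did not keep Klf16 (-0.18, adjusted p = 0.22 by edgeR). The median absolute log2 fold change over 48 h was 1.04 for the members and 0.56 for all genes.

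In iEZR_CA cells most members changed too. From ESC to T24, 2 were called higher and 6 lower, against 27.1% and 28.9% of all genes tested. From T24 to T48, 4 were called higher and 5 lower, against 29.6% and 30.0%. Over the whole 48 h, 3 were called higher and 6 lower, against 35.2% and 35.0%. Spike-in scaling kept neither Klf9 (-0.25, adjusted p = 0.077 by edgeR) nor Klf10 (-0.17, adjusted p = 0.26 by edgeR) over 48 h and added Klf13. The median absolute log2 fold change over 48 h was 0.46 for the members and 0.46 for all genes.

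Between the lines, 3 members were called higher and 5 lower in iEZR_CA than in WT ESCs, against 26.4% and 28.1% of all genes tested. At T24, 4 were called higher and 4 lower, against 30.8% and 30.1%. At T48, 6 were called higher and 4 lower, against 31.0% and 30.1%. The members' median log2 fold change between the lines was -0.13 in ESCs, 0.10 at T24 and 0.42 at T48, beside -0.01, -0.00 and 0.00 over all genes.

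**Figure D2:**
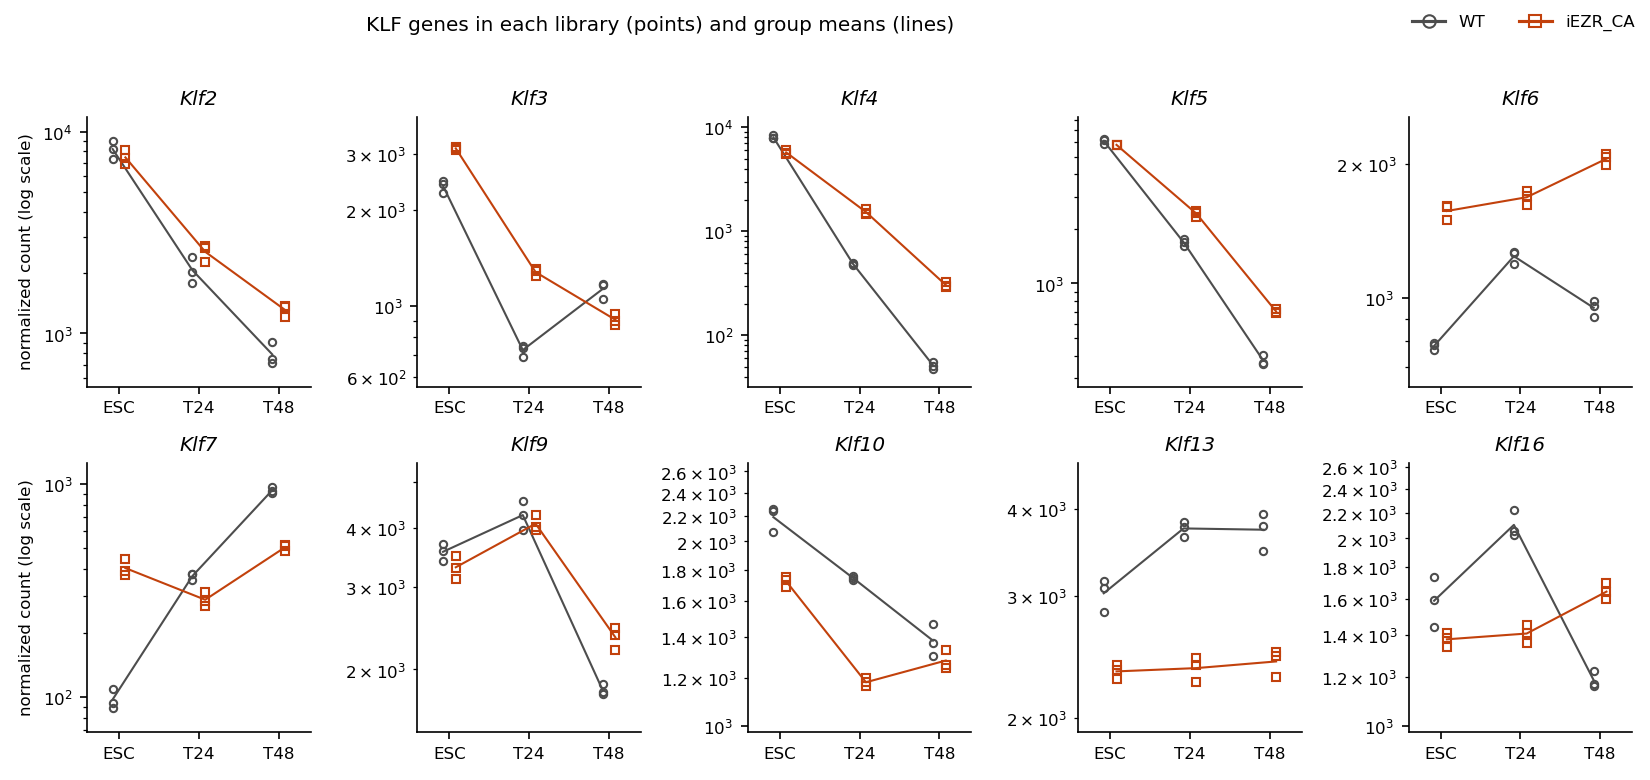
Each panel plots 1 KLF gene, with the normalized count of every library on a log axis against stage, WT as grey circles and iEZR_CA as orange squares, and lines through the group means of 3 libraries. Klf2, Klf4 and Klf5 fall in both lines, Klf7 rises in WT from 97.8 to 934 and in iEZR_CA cells from 403 to 505, and the means of the lines keep their order at all 3 stages for Klf6, Klf10 and Klf13.

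Klf4 (ENSMUSG00000003032, GRCm38 chr4:55527143-55532466, minus strand), an activator of the naive network, differed more between the lines at T48 than any other member. Its WT libraries held 8408, 7819 and 7822 normalized counts in ESCs, 494, 484 and 473 at T24 and 51, 47.8 and 55.7 at T48. The iEZR_CA libraries held 6026, 5646 and 5543, then 1491, 1478 and 1630, then 294, 296 and 324. All iEZR_CA libraries lay below WT in ESCs and above WT at T24 and T48, with no overlap at any stage. In WT the level at T48 was 0.642% ± 0.0492 of the ESC mean, and in iEZR_CA cells 5.31% ± 0.291. The WT fall over 48 h was a log2 fold change of -7.27 ± 0.060 (SE; adjusted p = 2.0e-72, edgeR) and the iEZR_CA fall -4.25 ± 0.045 (adjusted p = 3.9e-66, edgeR). Against WT, Klf4 was lower in iEZR_CA ESCs, at -0.49 ± 0.032 (adjusted p = 1.2e-21, edgeR). It was 3.16-fold higher at T24 and 5.79-fold higher at T48 (2.53 ± 0.098, adjusted p = 2.7e-33, edgeR). The 16 tested genes within 2.5 Mb of Klf4 with a mean of at least 50 normalized counts had median differences of 0.37, 0.34 and 0.21 at the 3 stages.

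The falls differed between the lines in both intervals for Klf4. By the line-by-time term, which tests the change in iEZR_CA minus the change in WT, the difference was 2.15 ± 0.056 from ESC to T24 and 0.88 ± 0.119 from T24 to T48 (adjusted p = 1.8e-41 and 4.6e-09, edgeR). In the second interval the mean of WT Klf4 went from 483 to 51.5 and that of iEZR_CA Klf4 from 1533 to 305 normalized counts.

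Klf2 (ENSMUSG00000055148, chr8:72319033-72321656, plus strand), whose protein is a target of ERK signalling, was the most abundant member per length in naive ESCs. In WT its libraries held 9018, 8217 and 7329 normalized counts in ESCs, 2383, 2005 and 1781 at T24 and 747, 713 and 905 at T48. In iEZR_CA cells they held 8059, 7374 and 6903, then 2699, 2253 and 2664, then 1363, 1213 and 1348. The lines overlapped in ESCs and at T24 and were apart at T48, where every iEZR_CA library was higher. In WT ESCs the SD of Klf2 was 845 around a mean of 8188, beside 339 around 8016 for Klf4 and 172 around 6096 for Klf5. The difference between the lines was -0.14 ± 0.106 in ESCs (adjusted p = 0.29, edgeR), 0.27 ± 0.123 at T24 (adjusted p = 0.072, edgeR) and 0.71 ± 0.148 at T48 (adjusted p = 0.00095, edgeR). The value at T24 passed the test in DESeq2 (0.30, adjusted p = 0.038) and with spike-in scaling (0.36, adjusted p = 0.013 by edgeR). It also passed without WT T24 library 1 (0.41) or without iEZR_CA T24 library 2 (0.36).

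The genes of chromosome 8 were slightly higher as a whole in iEZR_CA cells. Over the 682 other tested genes of that chromosome with a mean of at least 50 normalized counts, the median log2 fold change was 0.19 in ESCs, 0.24 at T24 and 0.20 at T48. Klf2 stood -0.33 from this median in ESCs, 0.04 at T24 and 0.51 at T48. Over the 90 of these genes within 2.5 Mb of Klf2 the median was 0.07, 0.10 and 0.15. The difference of Klf2 itself was 0.27 at T24 and 0.71 at T48. Whether Klf2 shares a cause with the genes of its chromosome was not tested. The line-by-time term from ESC to T48, in which a shift shared by all 3 stages cancels, was 0.85 ± 0.182 for Klf2 (adjusted p = 0.0017, edgeR). For ESC to T24 it was 0.41 ± 0.162 (adjusted p = 0.062, edgeR), a value that ranged from 0.33 to 0.56 when single libraries were left out and passed the test without WT T24 library 1 (0.56), iEZR_CA T24 library 2 (0.50) or WT ESC library 3 (0.49) and in DESeq2 (0.44, adjusted p = 0.043). From T24 to T48 it was 0.44 ± 0.193 (adjusted p = 0.085, edgeR), and it passed without WT T24 library 3 (0.52).

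Klf5 (ENSMUSG00000005148, chr14:99298691-99315036, plus strand), the other naive activator, was at 27.7% of its ESC mean at T24 in WT cells, where Klf4 was at 6.03%. WT libraries held 6212, 6179 and 5898 normalized counts in ESCs, 1751, 1702 and 1611 at T24 and 359, 402 and 366 at T48. The iEZR_CA libraries held 5790, 5784 and 5827, then 2440, 2338 and 2507, then 725, 694 and 685. The lines did not overlap at any stage, with iEZR_CA slightly below WT in ESCs and above it at T24 and T48. The ESC difference was -0.08 ± 0.030 (adjusted p = 0.022, edgeR). This call was lost in DESeq2, with spike-in scaling, without a filter on low counts, and without WT ESC library 1 (-0.069), WT ESC library 2 (-0.069) or iEZR_CA ESC library 1 (-0.074). At T24 the difference was 0.52 ± 0.035 and at T48 0.93 ± 0.052 (adjusted p = 5.1e-21 and 2.7e-25, edgeR). The 426 other tested genes of chromosome 14 with a mean of at least 50 normalized counts had a median of -0.30, -0.35 and -0.24 at the 3 stages. The 9 of them within 2.5 Mb of Klf5 had -0.05, -0.03 and -0.09.

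All 3 activators kept more of their ESC level in iEZR_CA cells at T48. For Klf2 the level left was 17.6% ± 1.1 in iEZR_CA and 9.63% ± 1.25 in WT cells, and for Klf5 12.1% ± 0.366 and 6.16% ± 0.377. At T24 Klf4 was at 26.7% ± 1.47 in iEZR_CA and 6.03% ± 0.131 in WT cells, Klf5 at 41.9% ± 1.47 and 27.7% ± 1.17, and Klf2 at 34.1% ± 3.33 and 25.1% ± 3.71. By the line-by-time term these differences passed the test for Klf4 and Klf5 at both stages and for Klf2 at T48.

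**Figure D3:**
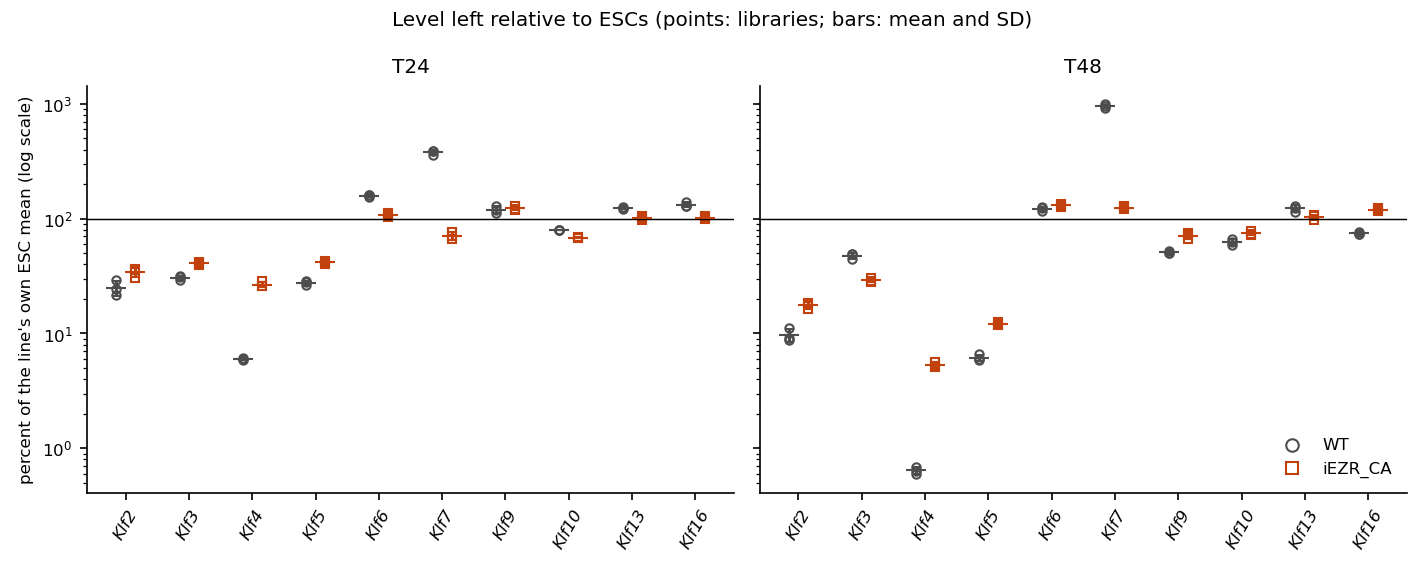
For each KLF gene the normalized count of every library at T24 (left) and T48 (right) is given as a percent of the mean of the same line in ESCs, on a log axis, with the group mean and SD as bars. Klf4 is at 6.03% in WT and 26.7% in iEZR_CA cells at T24, and Klf7 at 955% in WT and 125% in iEZR_CA cells at T48.

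Promoter sequences are shown for Klf2 and Klf4, which fell together, and for Klf7, which rose in WT cells. They are RefSeq sequences of GRCm38.p6 that cover 250 bases before and 50 bases after the start of transcription, at chr8:72318812-72319111 (plus strand) for Klf2, chr4:55532426-55532725 (minus strand) for Klf4 and chr1:64121340-64121639 (minus strand) for Klf7. The RefSeq start of Klf7 lies inside the gene as the GENCODE annotation draws it. Capitals mark the GC box GGGCGG on either strand.
Klf2: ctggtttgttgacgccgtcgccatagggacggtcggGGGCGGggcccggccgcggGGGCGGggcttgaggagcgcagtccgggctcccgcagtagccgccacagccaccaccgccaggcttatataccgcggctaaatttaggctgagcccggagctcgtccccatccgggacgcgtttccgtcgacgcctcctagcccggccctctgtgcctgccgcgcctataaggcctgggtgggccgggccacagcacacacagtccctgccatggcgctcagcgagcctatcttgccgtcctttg
Klf4: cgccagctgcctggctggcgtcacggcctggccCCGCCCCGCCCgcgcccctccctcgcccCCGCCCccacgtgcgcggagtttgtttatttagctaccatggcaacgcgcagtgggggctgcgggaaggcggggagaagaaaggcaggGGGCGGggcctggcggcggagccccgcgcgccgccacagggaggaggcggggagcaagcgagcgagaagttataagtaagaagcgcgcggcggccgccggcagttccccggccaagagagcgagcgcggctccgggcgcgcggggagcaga
Klf7: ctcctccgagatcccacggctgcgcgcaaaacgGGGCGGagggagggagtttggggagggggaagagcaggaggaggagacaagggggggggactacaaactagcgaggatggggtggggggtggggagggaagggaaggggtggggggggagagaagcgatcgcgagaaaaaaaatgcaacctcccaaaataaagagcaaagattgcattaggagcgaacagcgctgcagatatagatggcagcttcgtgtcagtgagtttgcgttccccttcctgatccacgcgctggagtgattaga

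The GC box, a sequence bound by SP and KLF proteins, occurred 2 times in the Klf2 promoter, 4 times in that of Klf4 and 1 time in that of Klf7, and 35.7% of 32851 mouse promoters of the same length hold it. The CACCC box, searched as CCACCC on both strands, occurred 1 time for Klf2, 0 times for Klf4 and 3 times for Klf7, against 31.5% of promoters with a match. An E-box CACGTG lay at -182 from the start of Klf4 and at -43 from that of Klf6 (7.15% of promoters hold one), and a MEF2 site at -118 from that of Klf2 (3.19%). The STAT site TTCNNNGAA was found in the window of Klf9, at -33, and in 8.3% of promoters. Of the 7 members with a promoter in the table, 6 held a GC box, with 6 copies in that of Klf3; 2.71% of promoters hold 5 or more. A pair of the Klf4 copies overlap by 1 base, and the CACCC box of Klf13 overlaps one of its GC boxes. The GC content of the 7 promoters ran from 58.3% to 76.7%, beside a median of 52.7% over all promoters. The motifs searched for also included CCAAT and TATAAA, of which CCAAT was found in the promoters of Klf6, Klf9 and Klf13 (37.4% of promoters) and TATAAA in none (13.6%). The half-site AAGGTCA (4.72%) and the CArG box (1.63%) were not found in these windows. Klf5, Klf10 and Klf16 had no entry.

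Klf3 (ENSMUSG00000029178, chr5:64803388-64832901, plus strand), the CtBP-dependent repressor, changed the side of its difference between T24 and T48. WT libraries held 2424, 2471 and 2256 normalized counts in ESCs, 750, 693 and 739 at T24 and 1051, 1164 and 1176 at T48. The iEZR_CA libraries held 3085, 3134 and 3156, then 1303, 1289 and 1241, then 874, 942 and 899. In WT cells Klf3 thus dropped and partly came back, while in iEZR_CA cells it dropped at both steps, and the lines were apart at every stage. It was higher in iEZR_CA ESCs by 0.38 ± 0.037 and at T24 by 0.81 ± 0.047 (adjusted p = 4.1e-14 and 2.6e-24, edgeR). At T48 it was lower, at -0.31 ± 0.046 (adjusted p = 3.2e-08, edgeR), a call that spike-in scaling did not keep (-0.26, adjusted p = 0.11). From T24 to T48 it rose in WT by 0.62 ± 0.048 (adjusted p = 1.6e-18, edgeR) and changed by -0.49 ± 0.045 in iEZR_CA cells (adjusted p = 2.6e-15, edgeR). The line-by-time term for this step was -1.12 ± 0.066 (adjusted p = 1.7e-23, edgeR).

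Klf7 (ENSMUSG00000025959, chr1:64029447-64122282, minus strand), an activator of the Klf6 branch known from developing neurons, was the member that rose most in WT cells. Its WT libraries held 88.8, 110 and 94.5 normalized counts in ESCs, 353, 378 and 380 at T24 and 930, 906 and 966 at T48. In iEZR_CA cells they held 374, 391 and 445, then 283, 267 and 310, then 511, 486 and 517. The iEZR_CA libraries were all above WT in ESCs and all below WT at T24 and T48. In ESCs the level was 4.02-fold higher in iEZR_CA cells (2.01 ± 0.090, adjusted p = 7.0e-30, edgeR). At T24 the difference was -0.36 ± 0.075 (adjusted p = 2.7e-05, edgeR; -0.29 and adjusted p = 0.099 with spike-in scaling). By T48 it was -0.89 ± 0.059 (adjusted p = 1.1e-21, edgeR). In WT cells Klf7 rose 9.38-fold over 48 h (3.23 ± 0.078, adjusted p = 3.2e-46, edgeR), and in iEZR_CA cells 1.26-fold (0.33 ± 0.067, adjusted p = 1.6e-05, edgeR). The iEZR_CA change was -0.49 ± 0.075 to T24, a call that spike-in scaling did not keep (-0.34, adjusted p = 0.051), and then 0.82 ± 0.070 (adjusted p = 5.6e-08 and 1.9e-16, edgeR). The line-by-time term from ESC to T48 was -2.90 ± 0.108 (adjusted p = 4.2e-34, edgeR). Exons of the lincRNA Gm26649 on the opposite strand cover 39.3% of the exon bases of Klf7, and Gm26649 is listed at 0 counts in all 18 libraries. Whether the counting used strand is not given in the sources used here. The level per length of Klf7 was scaled by all of its exon bases. Its place in the orders of levels per length may therefore depend on how reads in the shared bases were counted.

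Klf6 (ENSMUSG00000000078, chr13:5861482-5870394, plus strand), a broadly expressed activator of the same branch, was higher in iEZR_CA cells at all 3 stages. WT libraries held 784, 795 and 767 normalized counts in ESCs, 1195, 1261 and 1269 at T24 and 907, 988 and 960 at T48. The iEZR_CA libraries held 1605, 1601 and 1498, then 1621, 1692 and 1737, then 1985, 2103 and 2072. Every iEZR_CA library exceeded every WT library, also across stages. The difference was 1.0 ± 0.044 in ESCs, 0.45 ± 0.041 at T24 and 1.12 ± 0.042 at T48 (adjusted p = 1.8e-30, 2.2e-15 and 1.3e-34, edgeR). In WT cells Klf6 rose by 0.65 ± 0.045 and then changed by -0.39 ± 0.045 (adjusted p = 6.9e-21 and 8.0e-12, edgeR), the second of which was not called with spike-in scaling (-0.26, adjusted p = 0.089). In iEZR_CA cells the first step was 0.10 ± 0.040 (adjusted p = 0.032, edgeR). That call was lost in DESeq2, with spike-in scaling, and without iEZR_CA ESC library 3 (0.069), iEZR_CA T24 library 2 (0.095) or iEZR_CA T24 library 3 (0.078). The second step was 0.29 ± 0.038 (adjusted p = 1.8e-09, edgeR). The net changes over 48 h, 0.26 ± 0.047 in WT and 0.38 ± 0.039 in iEZR_CA cells, differed by 0.12 ± 0.061 (adjusted p = 0.091, edgeR).

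**Figure D4:**
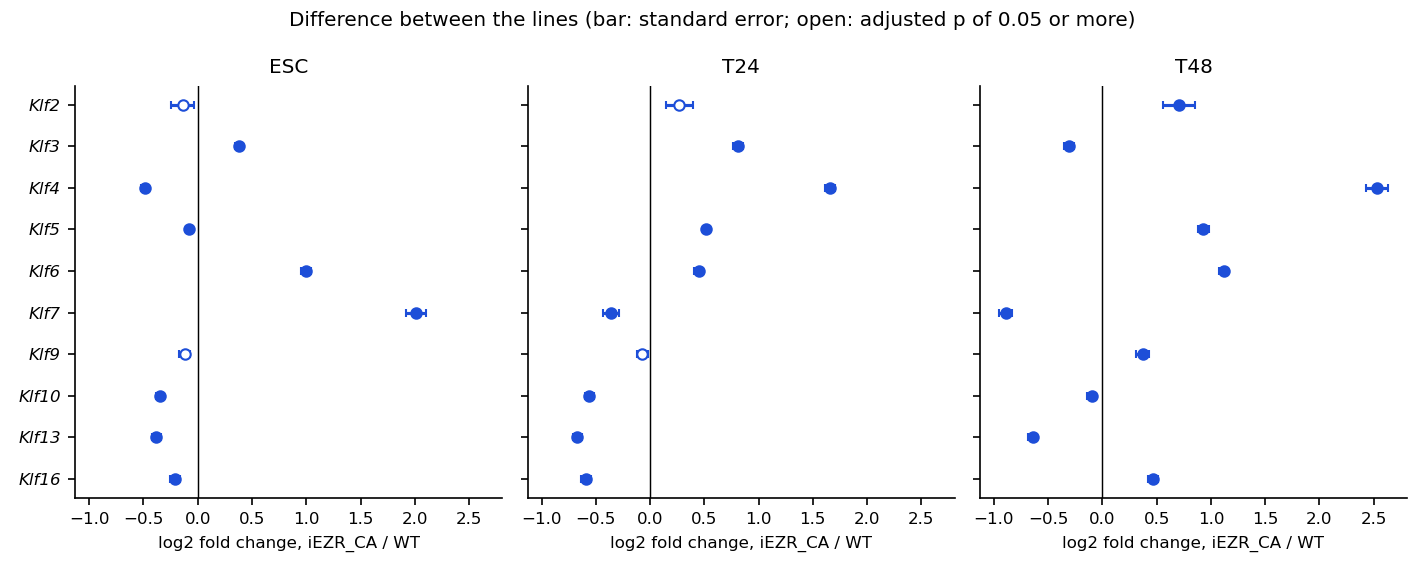
Log2 fold changes of iEZR_CA against WT for the 10 KLF genes in ESCs, at T24 and at T48, with standard errors as bars and open circles where the adjusted p was 0.05 or more. Klf7 moves from 2.01 in ESCs to -0.89 at T48, Klf4 from -0.49 to 2.53, and Klf6 stays above 0 and Klf13 below 0 at all 3 stages.

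Klf13 (ENSMUSG00000052040, chr7:63886351-63938915, minus strand), a member of the SIN3-recruiting branch, was lower in iEZR_CA cells at every stage. WT libraries held 3155, 3081 and 2847 normalized counts in ESCs, 3838, 3771 and 3651 at T24 and 3941, 3482 and 3789 at T48. The iEZR_CA libraries stayed between 2258 and 2492 at all 3 stages, below every WT library. The difference was -0.38 ± 0.043 in ESCs, -0.67 ± 0.042 at T24 and -0.64 ± 0.042 at T48 (adjusted p = 3.9e-09, 2.8e-15 and 1.0e-14, edgeR). The 20 tested genes within 2.5 Mb of Klf13 with a mean of at least 50 normalized counts had medians of -0.24, -0.15 and -0.24. Klf13 stood -0.14, -0.53 and -0.39 from these medians, and whether it shares a cause with these neighbours was not tested. In WT cells Klf13 rose by 0.30 ± 0.041 from ESC to T24 (adjusted p = 9.0e-08, edgeR) and did not pass the test from T24 to T48 (adjusted p = 0.95, edgeR). In iEZR_CA cells no step passed, with log2 fold changes of 0.01, 0.03 and, over 48 h, 0.04 (adjusted p = 0.86, 0.53 and 0.38, edgeR). With spike-in scaling the last of these was called (0.30, adjusted p = 0.034 by edgeR).

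Klf16 (ENSMUSG00000035397, chr10:80567124-80577321, minus strand), of the same branch, crossed between the lines. WT libraries held 1736, 1591 and 1441 normalized counts in ESCs, 2224, 2059 and 2027 at T24 and 1227, 1161 and 1167 at T48. The iEZR_CA libraries held 1409, 1386 and 1340, then 1412, 1359 and 1453, then 1695, 1597 and 1639. They lay below WT in ESCs and at T24 and above WT at T48, without overlap. The difference was -0.21 ± 0.047 in ESCs (adjusted p = 0.0002, edgeR; -0.16 and adjusted p = 0.39 with spike-in scaling), -0.59 ± 0.045 at T24 (adjusted p = 5.1e-16, edgeR) and 0.47 ± 0.047 at T48 (adjusted p = 2.7e-12, edgeR). From T24 to T48 Klf16 changed by -0.83 ± 0.047 in WT and 0.23 ± 0.046 in iEZR_CA cells (adjusted p = 2.9e-21 and 3.3e-05, edgeR), and the line-by-time term was 1.06 ± 0.065 (adjusted p = 4.7e-19, edgeR).

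Klf10 (ENSMUSG00000037465, chr15:38291463-38300706, minus strand), a TGF-β-inducible member of this branch, was lower in iEZR_CA ESCs and at T24. In WT its libraries held 2257, 2245 and 2071 normalized counts in ESCs, 1743, 1728 and 1759 at T24 and 1470, 1365 and 1302 at T48. In iEZR_CA cells they held 1750, 1732 and 1686, then 1180, 1162 and 1197, then 1246, 1333 and 1260. The lines were apart in ESCs and at T24 and overlapped at T48. The difference was -0.35 ± 0.039 in ESCs and -0.56 ± 0.042 at T24 (adjusted p = 6.0e-12 and 4.1e-19, edgeR), the first of which was not called with spike-in scaling (-0.30, adjusted p = 0.063). At T48 it was -0.10 ± 0.043 (adjusted p = 0.031, edgeR), a call lost in DESeq2, with spike-in scaling, without a filter on low counts, and without WT T48 library 1 (-0.052), iEZR_CA T48 library 1 (-0.090) or iEZR_CA T48 library 3 (-0.091). WT Klf10 changed by -0.34 in each interval, and iEZR_CA Klf10 by -0.55 and then by 0.12. The WT changes (adjusted p = 7.2e-12 and 9.0e-11, edgeR) were not called with spike-in scaling. The rise of 0.12 (adjusted p = 0.012, edgeR) was not called with spike-in scaling, without a filter on low counts, or without iEZR_CA T24 library 2 (0.10) or iEZR_CA T48 library 2 (0.083).

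Klf9 (ENSMUSG00000033863, chr19:23141226-23168134, plus strand), a member of this branch known as a glucocorticoid and thyroid hormone target, passed the test between the lines at T48 and not before. WT libraries held 3690, 3572 and 3406 normalized counts in ESCs, 4552, 4265 and 3950 at T24 and 1862, 1793 and 1772 at T48. The iEZR_CA libraries held 3486, 3118 and 3286, then 4264, 3962 and 4015, then 2454, 2198 and 2369. The ranges overlapped in ESCs and at T24 and were apart at T48. The difference was -0.12 ± 0.053 in ESCs and -0.07 ± 0.052 at T24 (adjusted p = 0.074 and 0.26, edgeR). The ESC value passed the test without a filter on low counts (-0.13, adjusted p = 0.0059 by edgeR), in a fit of these groups alone (-0.11), and without WT T24 library 1 or 3 (-0.12 each), iEZR_CA T48 library 2 (-0.12) or iEZR_CA ESC library 1 (-0.16). The T24 value passed without WT T24 library 3 (-0.12). At T48 Klf9 was higher in iEZR_CA cells by 0.37 ± 0.058 (adjusted p = 2.3e-05, edgeR). It rose in both lines to T24, by 0.26 ± 0.052 in WT and 0.30 ± 0.053 in iEZR_CA cells (adjusted p = 0.00032 and 9.4e-05, edgeR), and then changed by -1.24 ± 0.056 and -0.80 ± 0.054 (adjusted p = 1.1e-12 and 5.1e-10, edgeR).

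Tested directly, the changes during exit differed between the lines for most members. From ESC to T24 the line-by-time term was called above 0 for 3 members and below 0 for 5, against 21.5% and 16.9% of all genes tested. From T24 to T48 it was above 0 for 6 and below 0 for 2, against 25.3% and 20.9%. Over the whole 48 h it was above 0 for 6 and below 0 for 3, against 25.7% and 20.0%. With spike-in scaling 4, 5 and 7 members were called in these 3 terms, where TMM gave 8, 8 and 9. Values above 0 over 48 h were those of Klf2, Klf4, Klf5, Klf9, Klf10 and Klf16, and values below 0 those of Klf3, Klf7 and Klf13.

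The KLF pattern of iEZR_CA cells at T48 was also set beside that of WT cells at T24, to see whether the later iEZR_CA stage held the values of the earlier WT stage. None of the 10 members overlapped between these groups, with 3 above and 7 below the WT T24 range, against 62.6% of all genes tested that did not overlap. Klf2 held 1308 ± 82.2 and 2056 ± 304 normalized counts, Klf4 305 ± 16.7 and 483 ± 10.5, and Klf5 701 ± 21.2 and 1688 ± 71.1. Those above the WT T24 range were Klf3, Klf6 and Klf7, at 905 ± 34.6, 2053 ± 61.2 and 505 ± 16.2 in iEZR_CA cells at T48.

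Of the remaining 7 KLF genes, 3 were lower and 4 not called in iEZR_CA against WT ESCs, beside 28.1% of all genes tested that were lower. At T24 the calls were 2 upward and 2 downward, beside 30.8% and 30.1% of all genes, and at T48 they were 2 and 3, beside 31.0% and 30.1%. These shares of all genes also stand behind the counts of the lists that follow. Klf8, a CtBP-binding repressor like Klf3, fell in WT from 2090 ± 136 to 222 ± 2.27 normalized counts over 48 h and was higher in iEZR_CA cells at T48 by 0.60 (adjusted p = 5.6e-11, edgeR). Klf15, a metabolic regulator, was lower in iEZR_CA cells at T48, at -1.07 (adjusted p = 1.9e-12, edgeR). Klf12 and Klf11 were lower there too, at -0.34 and -0.32 (adjusted p = 0.0023 and 6.2e-06, edgeR). The related Sp genes, which share the zinc fingers and the GC box, counted 9, of which 8 were tested, and the T48 comparison called 3 upward and 2 downward, near the shares over all genes. Sp2 was higher by 0.58 and Sp8 lower, at -0.66 (adjusted p = 9.7e-21 and 2.7e-05, edgeR), while Sp4 was higher by 0.17 (adjusted p = 0.022, edgeR). Sp5, a WNT target, fell in both lines, from 478 ± 99.2 to 2.88 ± 3.11 normalized counts in WT, and did not pass the test between the lines at T48 (0.31, adjusted p = 0.83, edgeR).

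Among 9 genes for partners of the KLF proteins (CtBP, SIN3, histone deacetylase and acetyltransferase genes), calls in iEZR_CA cells against WT went up for 3 and down for 3 in ESCs, for 3 and 4 at T24, and for 3 and 3 at T48, with a median log2 fold change of 0.01 at T48. The scaffold genes Sin3a and Sin3b differed in opposite directions at T48, at -0.43 and 0.42 (adjusted p = 1.7e-21 and 1.7e-18, edgeR). Sap30, a subunit of the SIN3 complex, was higher by 0.41 and Hdac2 by 0.15 (adjusted p = 4.1e-10 and 3.1e-05, edgeR). Of 7 genes for ubiquitin ligases and adaptors that act on KLF proteins, 4 went up and 1 down in the ESC comparison, 2 and 2 in that at T24, and 3 and 2 in that at T48. Wwp1, a ligase for Klf2 and Klf5, was higher by 0.23, Vhl by 0.22 and Smurf1 by 0.14 (adjusted p = 2.9e-06, 0.00045 and 0.0054, edgeR), and Fbxo32 had a value of 0.17 (adjusted p = 0.31, edgeR).

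Most genes of the LIF and STAT3 list were higher in iEZR_CA cells during exit. Of its 6 genes, 4 were higher in ESCs, 6 at T24 and 5 at T48, and the rest were not called, beside 26.4%, 30.8% and 31.0% of all genes tested that were higher, with median log2 fold changes of 0.18, 0.45 and 0.95. At T48 the LIF receptor gene Lifr was higher by 1.89, Stat3 by 1.35, and the kinase genes Jak2 and Jak1 by 1.30 and 0.61 (adjusted p = 5.6e-36, 6.0e-32, 4.4e-25 and 2.9e-22, edgeR). Socs3, a STAT3 target that feeds back on the pathway, had a value of 0.17 there (adjusted p = 0.28, edgeR). The 7 transcription factor genes that act beside the KLF activators in the naive network (Nanog, Esrrb, Tfcp2l1, Tbx3, Nr5a2, Prdm14 and Zfp42) included 3 that were lower and 4 not called in iEZR_CA ESCs, and all 7 were higher at T24 and at T48, beside 28.1% of all genes lower in ESCs and 30.8% and 31.0% higher at T24 and T48, with medians of 1.48 and 2.25. Esrrb was higher at T48 by 2.77, Zfp42 by 2.63, Tbx3 by 2.32 and Prdm14 by 2.25 (adjusted p = 2.6e-58, 2.2e-39, 2.0e-24 and 1.2e-08, edgeR).

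Across the 18 libraries, the pattern of Klf2, Klf4 and Klf5 was most like that of the following genes, by Pearson correlation of log2(normalized count + 1) among 11346 protein-coding genes. For Klf4 they were Slc38a10, Ksr1 and Tfcp2l1 (r = 0.996 each), for Klf5 Nr5a2 and Pip5k1b (0.997 each) and Tada3 (0.996), and for Klf2 Gna13 (0.993), Cdc5l and Sod2 (0.990 each). Among the members, Klf4 and Klf5 correlated at 0.98, and Klf2 with each of them at 0.98. Klf4 and Klf7 correlated at -1.0 over the 9 WT libraries and at -0.44 over the 9 iEZR_CA libraries. These correlations describe libraries that fall into 6 groups and share the stages, so they carry no test.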

How the data were processed

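RNA of mouse ESCs was sequenced in paired ends in 18 libraries. According to the sources, the authors removed adapters with Trim Galore 0.6.5, used GSNAP for alignment to the mouse build GRCm38, and obtained reads per Ensembl 81 gene from HTSeq; the deposited values are raw counts, with 92 ERCC spike-in sequences. Counting strand is not given in the sources used here. Between 21.3% and 24.3% of counts in a library lay in the entries that HTSeq keeps for reads not assigned to a gene, and between 0.575% and 0.884% in spike-ins. Both stayed out of library sizes and tests.

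The KLF members and all gene lists were chosen with earlier results of these data known. Genes passing filterByExpr by group (18469) were fitted with edgeR 4.0.16 (quasi-likelihood, robust, TMM, means of 6 groups over all libraries, 12 residual degrees of freedom, common biological coefficient of variation 2.98%) in R 4.3.3, with Benjamini-Hochberg adjustment over all genes. An exact permutation test of 3 against 3 libraries cannot give a two-sided p below 0.1, so none was used. The code of the fit was run on simulated counts in which a small part of the genes changed, in the iEZR_CA T48 group only. Genes with low counts were missed more often there. These settings differ from the data, where a much larger share of genes was called, so the run checks the code alone. RPKM used exon lengths of GENCODE M21, in which 53706 of 53801 gene IDs were found. Named beside the members were Ezr, at most 4 genes a list with the largest fold change between lines at T48 and a mean of at least 50 normalized counts, and the 3 genes most alike for each naive activator. Cell type markers were named as examples outside this rule. The samples carry no replicate numbers, so libraries were numbered in order of accession. Alternatives were DESeq2 1.42.0, its size factors, spike-in scaling, TMM without chromosome 8, other filters on low counts, fits of the compared groups alone, and leaving out each library.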

Additional observations from a re-analysis of the deposited data

Results flagged for a closer look

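Of 30 line-by-time terms, 25 passed the test of the difference itself (edgeR's quasi-likelihood test, Benjamini-Hochberg adjusted p under 0.05 over all genes), beside 38.3% of all genes for ESC to T24, 46.2% for T24 to T48 and 45.8% for ESC to T48. Each value is the log2 change in iEZR_CA minus that in WT. The term from ESC to T48 is the sum of those for the shorter intervals, so the terms of a gene are not independent. From ESC to T24 the term was 0.43 for Klf3, 2.15 for Klf4, 0.59 for Klf5, -0.55 for Klf6, -2.37 for Klf7, -0.21 for Klf10, -0.29 for Klf13 and -0.38 for Klf16. From T24 to T48 it was -1.12 for Klf3, 0.88 for Klf4, 0.41 for Klf5, 0.67 for Klf6, -0.53 for Klf7, 0.44 for Klf9, 0.46 for Klf10 and 1.06 for Klf16. From ESC to T48 it was 0.85 for Klf2, -0.69 for Klf3, 3.02 for Klf4, 1.01 for Klf5, -2.90 for Klf7, 0.49 for Klf9, 0.25 for Klf10, -0.26 for Klf13 and 0.68 for Klf16. For Klf3, Klf6, Klf10 and Klf16 the term changed sign between the first and the second interval. With spike-in scaling 9 of these terms were not called, with values close to those above and standard errors of 0.179 to 0.186 in place of 0.058 to 0.078. They were Klf3 (0.45), Klf10 (-0.19), Klf13 (-0.27) and Klf16 (-0.35) from ESC to T24, Klf5 (0.36), Klf9 (0.41) and Klf10 (0.45) from T24 to T48, and Klf10 (0.26) and Klf13 (-0.25) from ESC to T48.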

How the results depend on the processing

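Over the 12 comparisons and 10 members, 106 of 120 tests were called, beside 38.3% to 74.5% of all genes by comparison. The comparisons share the same group means, and those from ESC to T48 are sums of the shorter steps, so these tests are not independent. Using DESeq2's size factors in edgeR changed none of the 120 calls. Spike-in scaling lost 24 calls and gained 2, and gave 5 members called between the lines in ESCs and 4 and 5 for the line-by-time terms from ESC to T24 and from T24 to T48, where TMM gave 8 each. It moved the median of all genes by 0.13, 0.13 and 0.27 in WT (ESC to T24, T24 to T48, ESC to T48) and by 0.14, 0.10 and 0.26 in iEZR_CA cells. The values that changed sign were near 0 and not called. They were Klf9 between the lines at T24 with spike-in scaling (0.0093), and Klf13 from T24 to T48 in WT with spike-in scaling (0.12), TMM without chromosome 8 genes (0.0027) and at least 10 counts in every library (0.026). Leaving out single libraries moved Klf13 between -0.038 and 0.033 for T24 to T48 in WT, between -0.018 and 0.065 for the line-by-time term of this step, between -0.015 and 0.045 for ESC to T24 in iEZR_CA and between -0.0091 and 0.063 for T24 to T48 in iEZR_CA. The cause was not tested. No paired analysis was possible because the labels give no replicate numbers. Depth limits the lowest values, such as Klf4 in WT at T48 with 25 to 68 counts a library.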
